A study of Mus musculus with 6 samples.

Results

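Proliferating cells of the aged mouse lung were taken from 6 droplet-based single-cell RNA libraries by their own transcripts. A barcode was counted as proliferating when it held at least 500 genes, at least 1000 UMIs (unique molecular identifiers, which count captured RNA molecules), at most 15% mitochondrial UMIs, at least 2 UMIs of Mki67 and at least 2 of Top2a. The cells were thus chosen by their own Mki67 and Top2a counts, which are not results here. The rule found 593 of 88616 retained cells, or 0.669%. The study asked what follows in the lung when cells with high p16 expression are removed. The p16-DTR group holds 3 lungs of p16-CreERT2/R26-LSL-DTR mice, in which Cre from the p16 locus, once switched on by tamoxifen, opens a diphtheria toxin receptor cassette at Rosa26, so that only cells with an active p16 promoter at that time become sensitive to the toxin. The control group holds 3 lungs of mice with p16-CreERT2 alone, which carry the same Cre allele and received the same drugs. All mice were 21-month-old C57BL/6 males. Both groups had 5 days of tamoxifen, a pause of 2 weeks, 5 days of diphtheria toxin and 2 weeks of recovery. Each library mixed 20000 sorted CD45- cells with 9000 CD45+ cells of one tissue, so the shares of immune and other cells below were set in part by that mix. No label gives an animal's identity, and p-values measure the spread between these samples.

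Mki67 encodes the Ki-67 protein, which coats mitotic chromosomes and is made by cells in cycle, and Top2a encodes the topoisomerase that untangles replicated DNA. A dividing cell first copies its DNA with genes driven by E2F factors, then turns on mitotic genes through the MuvB complex with B-Myb and FoxM1. Cyclin-dependent kinase inhibitors oppose both steps, and p16, one product of Cdkn2a, blocks CDK4 and CDK6 upstream of the retinoblastoma protein. In a resting adult lung most structural cells divide rarely, while lymphocytes, plasmablasts and dendritic cell precursors can divide in place.

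The libraries held 254200305 to 344421685 UMIs and 12667 to 16426 retained cells each. Of all barcodes, 1.13% occurred in more than 1 library. Among the proliferating cells 22 carried such a barcode, and 0 pairs of them shared one. The proliferating cells had a median of 38621 UMIs against 17868 in the other retained cells, which is 2.16 times as many. A simulated-doublet caller marked 63 of them (10.6%) and 6.30% of the other cells. The number marked in each library was set in advance, at 0.4% of its retained cells per 1000 barcodes, so the total is not a measured doublet rate.

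The rule used Mki67 and Top2a alone, and 80 other cell-cycle genes served as a description of what it caught. They are the genes of the replication, mitotic kinase, spindle and kinetochore lists used below. A proliferating cell held UMIs of a median of 53 of these 80 genes, with a quartile range of 28 to 71 and a full range of 4 to 80. At the edge of the rule, 131 cells in which the lower of the pair had 2 UMIs held a median of 18 of the 80 genes, and 351 cells just outside, in which it had 1 UMI, held a median of 16. The 372 cells with at least 5 UMIs of each gene held a median of 68, and the 82746 cells with neither gene held 9, at medians of 40970.5 and 17667 UMIs. The rule thus took in 104 cells (17.5%) with fewer than 20 of the 80 genes beside 322 cells (54.3%) with 50 or more, while only 4 (1.14%) of the cells just outside reached 50. Cells just inside and just outside had medians of 24984 and 30719 UMIs.

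**Figure D1:**
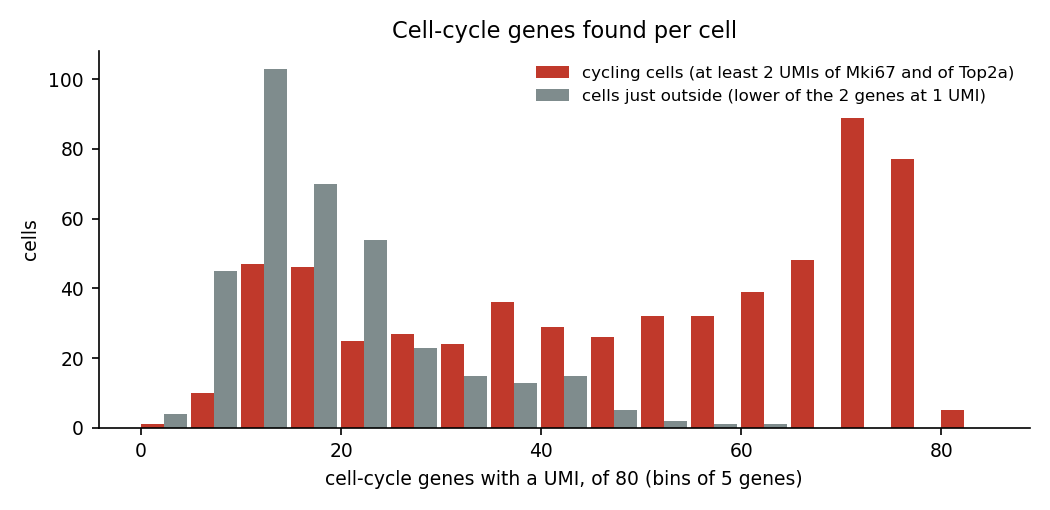
Number of cells (vertical axis) by how many of 80 cell-cycle genes had a UMI in the cell (horizontal axis, bins of 5 genes), for the 593 proliferating cells (red) and for the 351 cells in which the lower of Mki67 and Top2a had 1 UMI (grey). The red bars form a broad high group above 50 genes, which holds 322 cells, and a low group that overlaps the grey bars.

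The lineage of each cell was read from 4 genes at 2 or more UMIs: Ptprc (the leukocyte antigen CD45), Cdh5 (the endothelial junction protein VE-cadherin), Pdgfra (a growth factor receptor of fibroblasts) and Epcam (an epithelial adhesion molecule). Ptprc alone marked 389 proliferating cells (65.6%), Cdh5 alone 79 (13.3%), Pdgfra alone 3 and Epcam alone 2. Several of the genes together marked 109 cells (18.4%), and none of them marked 11. Other markers of each lineage followed the split. In Ptprc cells the immune marker gene Coro1a stood at 1122 ± 125 counts per 1000000 UMIs (CPM, SD, n = 6 libraries), against 6.58 ± 5.30 in Cdh5 cells. The endothelial junction gene Cldn5 stood at 687 ± 122 in Cdh5 cells and at 4.54 ± 1.65 in Ptprc cells. Within the retained cells of each lineage, 389 of 24203 Ptprc cells, 79 of 30078 Cdh5 cells, 3 of 21909 Pdgfra cells and 2 of 1666 Epcam cells were proliferating.

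The share of proliferating cells did not separate the groups. It was 0.426%, 0.835% and 0.882% of retained cells in p16-DTR libraries 1, 2 and 3, and 0.505%, 0.568% and 0.787% in control libraries 1, 2 and 3. The groups overlapped, p16-DTR 1 being the lowest library and p16-DTR 3 the highest. The 95% Wilson interval of p16-DTR 1 was 0.332 to 0.547% and that of p16-DTR 3 was 0.744 to 1.04%, counting error only, so these 2 libraries of one group had intervals that did not overlap. The means were 0.714 ± 0.251% and 0.620 ± 0.148% (SD, n = 3 each, two-sided exact permutation p = 0.7, where 0.1 is the smallest p that 3 against 3 can give).

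**Figure D2:**
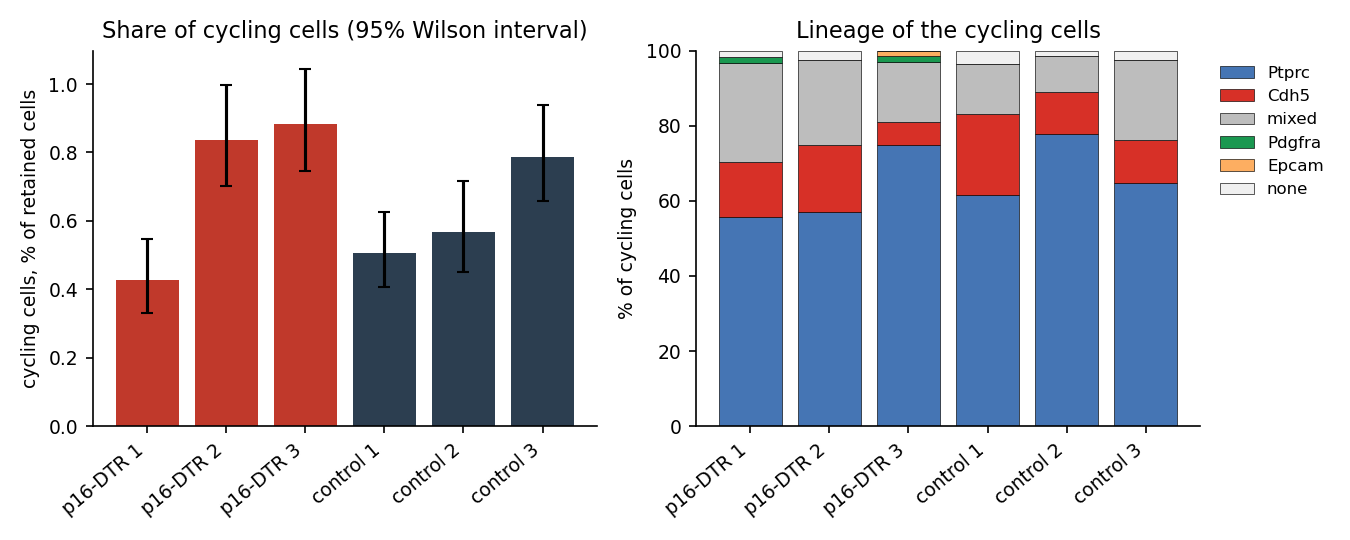
Left, proliferating cells as a percentage of retained cells in each library, with 95% Wilson intervals as error bars. Right, the lineage of the proliferating cells of each library as a percentage, by Ptprc, Cdh5, Pdgfra and Epcam. p16-DTR 1 is lowest at 0.426% and p16-DTR 3 highest at 0.882%, with the controls between them, and Ptprc cells are the largest fraction of every bar.

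The lineages gave the same picture. Of Ptprc cells, 0.851%, 1.59% and 1.92% were proliferating in the p16-DTR libraries and 1.42%, 1.79% and 2.00% in the controls. Of Cdh5 cells, the shares were 0.181%, 0.414% and 0.147% against 0.423%, 0.164% and 0.270%. Both lineages overlapped between the groups, with means of 1.45 ± 0.549% against 1.74 ± 0.293% for Ptprc (exact permutation p = 0.6) and 0.247 ± 0.145% against 0.285 ± 0.130% for Cdh5 (exact permutation p = 0.7). With the edgeR quasi-likelihood test on cell numbers, the Benjamini-Hochberg adjusted p was 0.716 for each of the lineages tested. Pdgfra cells gave 1 and 2 proliferating cells in p16-DTR 1 and 3 and 0 elsewhere, including 0 of 6267 in control 1, where the upper 95% Wilson limit is 0.0613%.

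The 109 cells with several lineage genes were of more than 1 kind. Ptprc with Epcam was the most frequent pair, at 56 cells, of which 7 were predicted doublets and 52 had fewer than 2 UMIs of every one of the epithelial genes Krt8, Krt18, Nkx2-1 and Cldn18, while 41 had at least 2 UMIs of Sftpc, an abundant surfactant gene, and 5 of Cdh1. Sftpc reached 2 UMIs in 20 of the 29 cells with Ptprc and Cdh5 too. By marker class, 17 of the 56 were dendritic-like, 11 T-like and 7 plasma-like. Epcam is also made by some dendritic cells, and here 18 of 51 proliferating dendritic-like cells (35.3%) and 188 of 520 other dendritic-like cells (36.2%) had at least 2 Epcam UMIs. Ptprc with Cdh5 marked 29 cells (16 predicted doublets), Ptprc with Pdgfra 16 (14 predicted doublets) and Cdh5 with Pdgfra 4 (all 4 predicted doublets), and 4 cells held 3 of the lineage genes.

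Marker classes, given to cells with at least 3 markers of a class at 2 or more UMIs, put lymphocytes first. There were 225 T-like cells (37.9% of the proliferating cells), 51 conventional dendritic-like, 51 general capillary-like, 50 B-like, 30 NK-like, 22 plasma-like and 10 alveolar macrophage-like cells, and 100 were unresolved. Since a shallow cell cannot show 2 UMIs of both genes easily, shares were also taken over cells of at least 20000 UMIs. There 15.5% of plasma-like cells (95% Wilson interval 10.3 to 22.7%), 13.8% of NK-like (9.45 to 19.7%), 9.54% of T-like (8.31 to 10.9%) and 9.42% of dendritic-like cells (7.22 to 12.2%) were proliferating, as were 8 of 76 alveolar macrophage-like cells (10.5%, 5.43 to 19.4%). The intervals of these classes overlap, so their order is not resolved. Lower shares were found in B-like cells, at 3.48% (2.59 to 4.67%), general capillary-like cells, at 0.931% (0.660 to 1.31%), and alveolar fibroblast-like cells, at 0.0288% (0.0112 to 0.0741%). All of these shares pool the cells of the 6 libraries, and the intervals cover counting error only. Single libraries need not keep the order. In control 2 the share at this depth was 6.76% in B-like and 6.25% in NK-like cells.

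Among T-like proliferating cells 107 had Cd4 and neither Cd8a nor Cd8b1, 86 had Cd8a or Cd8b1 without Cd4, 89 had Gzmk (a granzyme of memory-like CD8 T cells), 35 had Foxp3 (the factor of regulatory T cells) and 6 had Trdc (the constant chain of gamma-delta receptors). They numbered 21, 52 and 54 in the p16-DTR libraries and 19, 27 and 52 in the controls. NK-like proliferating cells were concentrated in 1 library, with 3, 1 and 18 cells in p16-DTR libraries 1 to 3 and 2, 1 and 5 in the controls. In p16-DTR 3, 12 of 33 NK-like cells of at least 20000 UMIs were proliferating (36.4%), and the other libraries lay between 4.55% and 15%. No class differed between the groups by the edgeR quasi-likelihood test, with a smallest Benjamini-Hochberg adjusted p of 0.559, that of the NK-like cells.

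Beyond the pair of genes that chose the cells, the machinery of division stood far above the other cells of the same lineage. This contrast was used by the rule, so the values describe the cells and carry no test. As the background, 10212 genes stood at 5 or more CPM in the Ptprc proliferating cells. Of these, 28.9% were higher there than in the other Ptprc cells in all 6 libraries and 22.6% were lower, with a median ratio of 1.04. That floor, also used for the lists, was set on the proliferating cells alone, so it favours genes that are high in them. Mki67 (chromosome 7, 135689784 to 135716361, minus strand, GRCm38) stood at 1197, 947 and 1169 CPM in the p16-DTR libraries and 809, 976 and 885 in the controls, against 8.17 ± 1.09 in the other Ptprc cells. Top2a (chromosome 11, 98992943 to 99024189, minus strand) stood at 1219.8, 889 and 1059 against 706, 813 and 809, and at 10.1 ± 1.09 in the other cells.

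DNA synthesis genes were the first group. All 27 genes of replication licensing and the fork were higher in all 6 libraries, with a median ratio of 8.05, and all 10 genes of nucleotide synthesis were, with a median ratio of 12.4. Mcm10, which loads polymerase at origins, stood at 41.3 ± 6.35 CPM against 0.919 ± 0.141, a median ratio of 44.4. Rrm2, the cell-cycle-limited subunit of ribonucleotide reductase, stood at 233, 161 and 186 in the p16-DTR libraries and 178, 198 and 133 in the controls, against a mean of 1.27 in the other cells, a median ratio of 136. Pcna, the sliding clamp, had a ratio of 4.96, and the other Ptprc cells held 48.4 ± 2.67. Of the histones and their chaperones, all 16 were higher (median ratio 12.2), from 3.25 for the variant histone gene H2afz to 768 for Hist1h3c. Histone genes of one cluster are near-identical in sequence, so single values of Hist1 genes are uncertain. All 16 DNA damage response genes were higher as well (median ratio 13.1), with Clspn, which carries the replication checkpoint signal, at 153 ± 34.9 against 1.59 ± 0.223.

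Mitotic lists had high median ratios. All 16 mitotic kinase and checkpoint genes (median ratio 50.8), all 20 spindle genes (63.4), all 17 kinetochore and centromere genes (22.4) and all 16 condensin, cohesin and chromosome structure genes (15.2), a list that includes Mki67 and Top2a, were higher in all 6 libraries. Birc5, the survivin subunit of the chromosomal passenger complex, stood at 286, 255 and 286 CPM against 135, 211 and 168 in the controls, and at 1.26 ± 0.182 in the other cells. Pbk, a mitotic kinase, had a median ratio of 661 and Cenpf, a kinetochore protein, one of 295. In every library these values were at least 114-fold, 318-fold and 210.4-fold above the other cells for Birc5, Pbk and Cenpf. Of the anaphase-promoting complex and its partners 9 of 11 were higher, with a median ratio of 2.48, among them the ubiquitin-conjugating enzyme Ube2c at 240.2 ± 60.5 against 2.02 ± 0.825.

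Of 18 cyclin and cyclin-dependent kinase genes 16 were higher and 1, Ccnd3, was lower in all 6 libraries. Ccna2, the S and G2 phase cyclin, stood at 179.5, 122 and 163 CPM in the p16-DTR libraries and 65.1, 105 and 88.8 in the controls, against 0.188 ± 0.0333 in the other Ptprc cells, a median ratio of 699. Its kinase Cdk1 stood at 108 ± 24.4 against 0.753 ± 0.203. Ccnd3, a D-type cyclin of lymphocytes, stood at 336 ± 55.7 against 818 ± 102. Of the 17 RB, E2F and MuvB regulators 14 were higher, with E2f7, a repressor of late S phase, at a median ratio of 229, Mybl2 (B-Myb) at 29.5 and Foxm1 at 25.8. Inhibitors split as well. Cdkn3 (ratio 62.0), Cdkn2c, which encodes p18 (5.70), and Cdkn2a, given below, were higher in all 6 libraries, and Cdkn1b (p27, 0.741) and Cdkn1a (p21) were lower. Cdkn1a stood at 154, 106 and 84.3 against 118, 118 and 127 in the controls, and at 225 ± 45.5 in the other Ptprc cells. Within single classes the direction of Cdkn1a turned in values pooled over libraries, which need not hold in each library: it stood at 91.8 CPM (library range 33.1 to 161) in proliferating against 74.9 in other T-like cells, 95.3 against 39.8 in B-like, 85.0 against 51.3 in NK-like, 208 against 158 in dendritic-like and 33.4 against 18.7 in plasma-like cells. Ccnd3 was lower in proliferating cells in each of these classes, for example at 283 against 832 in T-like cells, while Cdkn1b was lower in T-like, B-like and NK-like cells and higher in dendritic-like and plasma-like cells.

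Dissociation stress genes were mostly lower, where 22.6% of the background genes were lower in all 6 libraries. Of 14 dissociation stress genes with enough counts 9 were lower and 2 higher in all 6 libraries (median ratio 0.592). Fos and Junb, immediate early factors, had ratios of 0.464 and 0.509, while the chaperone gene Hsp90aa1 had 1.94. Of 12 mitogen and growth factor genes 5 were lower and 1 higher (0.624), of 15 p53 targets 6 were lower and 4 higher (0.864), and of 13 interferon response genes 5 were lower and 0 higher (0.828). Proliferating and other Ptprc cells also differ in their mix of cell classes, and the part of that mix in the ratios of the stress, p53 and interferon lists was not tested.

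**Figure D3:**
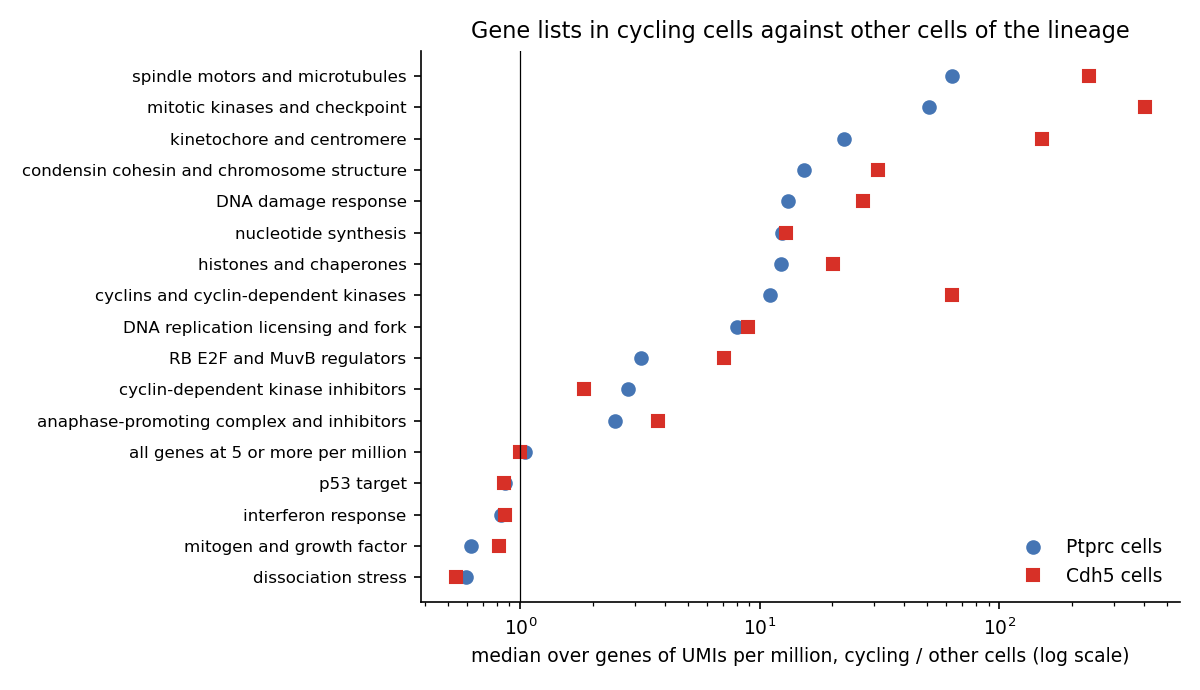
Median over the genes of each list of the ratio of CPM in proliferating cells to other cells of the same lineage (log axis), for Ptprc cells (blue circles) and Cdh5 cells (red squares). The row of all genes, those at 5 or more CPM in the proliferating cells, lies at 1.04 for Ptprc and 0.995 for Cdh5. Spindle genes reach 63.4 and 236, and dissociation stress genes lie lowest at 0.592 and 0.536.

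In Cdh5 cells the same lists stood higher, with the ratios of mitotic genes above those in Ptprc cells. The background there, by the same floor in the proliferating Cdh5 cells, was 15.6% of 10452 genes higher and 13.1% lower in all 6 libraries. The mitotic kinase list (16 of 16 higher) had a median ratio of 406, the spindle list (20 of 20) 236 and the kinetochore list (16 of 17) 151, while the replication list (26 of 27) had 8.92. Prc1, which bundles the central spindle, stood at 1063 ± 213 CPM in the proliferating and 1.21 ± 0.237 in the other Cdh5 cells. Cdkn2c had a ratio of 32.1, and Cdkn1a stood at 615 ± 92.6 CPM against 643 ± 162, with library ratios from 0.598 to 1.12. The vascular growth factor receptor genes Flt1 (0.512) and Kdr (0.288) were lower, at 823 ± 192 and 185 ± 63.9 CPM, and were the 2 of 10 mitogen and growth factor genes with enough counts that were lower in all 6 libraries. Within general capillary-like cells, pooled over libraries, Kdr stood at 186 CPM in proliferating against 276 in other cells, a smaller difference, and Flt1 at 754 against 1632. The libraries held 8 to 22 proliferating Cdh5 cells each, and no fit across genes was made between the groups on them.

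Some genes of these lists carry known sequence elements of cell-cycle promoters, and 3 such genes are shown. The sequences are the 200 bases before the start given by RefSeq on GRCm38.p6 for Mki67 at chr7:135716380-135716579, Top2a at chr11:99024190-99024389 and Cdk1 at chr10:69352913-69353112, each read 5′ to 3′ on the minus strand. Capitals mark the cell cycle homology region read by MuvB (TTTGAA or TTCGAA), the CCAAT box read by NF-Y (CCAAT) and E2F elements (TTTCCCGC, TTTGGCGC, TTTCGCGC or TTTGCCGC), each searched on both strands, so that TTCAAA and ATTGG are matches too.
Mki67: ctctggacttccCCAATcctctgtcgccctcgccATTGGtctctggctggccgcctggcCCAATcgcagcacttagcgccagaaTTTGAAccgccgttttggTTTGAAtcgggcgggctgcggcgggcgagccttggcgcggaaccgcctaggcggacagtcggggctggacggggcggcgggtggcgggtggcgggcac
Top2a: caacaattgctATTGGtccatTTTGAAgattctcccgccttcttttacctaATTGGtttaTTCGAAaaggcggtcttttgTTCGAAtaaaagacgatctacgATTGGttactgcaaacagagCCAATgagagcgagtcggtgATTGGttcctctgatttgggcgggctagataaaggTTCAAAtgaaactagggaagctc
Cdk1: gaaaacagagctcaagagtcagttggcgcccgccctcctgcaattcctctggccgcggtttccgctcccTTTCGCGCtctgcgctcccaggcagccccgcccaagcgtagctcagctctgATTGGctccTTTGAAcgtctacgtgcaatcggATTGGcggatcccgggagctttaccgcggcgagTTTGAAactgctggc
Mki67 shows 2 homology regions and 3 CCAAT boxes here, Top2a 4 and 5, and Cdk1 2 and 2 with 1 E2F element. Not all genes of the lists are like these: the same stretch of Birc5 held 0 of each element, and that of Ccnb1 only 2 CCAAT boxes. Over 32851 windows of 300 bases (250 before to 50 after each start), 19.2% hold a homology region, 37.4% a CCAAT box, 2.26% an E2F element, and 7.52% both a homology region and a CCAAT box. Both were found in 8 of 13 windows of the mitotic kinase list (61.5%) and 10 of 18 of the spindle list (55.6%), and an E2F element in 12 of 26 windows of the replication list (46.2%) and 0 of 13 of the mitotic kinase list. The nucleotide synthesis list, with 10 windows for 9 of 10 genes, had an E2F element in 0 and a homology region in 1. Windows were matched for 12 of 16, 17 of 20 and 22 of 27 genes of these lists. A match describes letters and is not a shown binding site.

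Between p16-DTR and control, no gene passed in edgeR in the summed counts of all proliferating cells or of the Ptprc cells. The edgeR quasi-likelihood test with Benjamini-Hochberg adjustment at 0.05 called 0 of 12320 genes over all proliferating cells (763 at an unadjusted p under 0.05) and 0 of 10679 over Ptprc cells (1412 at an unadjusted p under 0.05), so percent called was 0 for both. DESeq2 on the same sums called 47 genes (0.381%) and 233 genes (2.18%). Without control 2 the edgeR test called 98 genes in Ptprc cells, 5 higher and 93 lower in p16-DTR. The test of whether the group difference was larger or smaller in proliferating than in other Ptprc cells also called 0 of 10679 genes (1206 at an unadjusted p under 0.05; DESeq2 194 genes, 1.82%). In the other Ptprc cells edgeR called 0 of 17176.

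Mki67 and Top2a chose the cells, so their levels by group, given above, are a description with no test. Of all genes tested in the Ptprc cells, 12.1% had all 3 p16-DTR libraries above all 3 controls and 19.4% did not overlap in either direction.

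Mitotic and histone lists leaned towards p16-DTR in Ptprc cells without any gene called by edgeR, and replication and DNA damage genes leaned the same way by less. The replication sum was 2567 ± 100.3 in p16-DTR and 2197 ± 359 in control Ptprc cells (SD, n = 3 each), and the replication, nucleotide synthesis, RB and E2F, and DNA damage sums all overlapped between the groups. By gene, 25 of 27 replication genes had a positive log2 fold change (median 0.18), as did 14 of 16 DNA damage genes (0.14). The same held for 7 of 10 nucleotide synthesis genes (0.11) and 12 of 17 RB and E2F genes (0.11). Over all proliferating cells the replication sum was 2102 ± 148 against 2135 ± 162, and in Cdh5 cells it was 2190 ± 245 against 2604 ± 179, lower in all 3 p16-DTR libraries. The summed mitotic kinase list stood at 1579.9, 1365 and 1453 CPM in p16-DTR and 870.1, 1172 and 1030.2 in control libraries, with no overlap. Of its 16 genes, 16 had a positive log2 fold change, the median was 0.45, and 10 had an unadjusted p under 0.05 in edgeR. For the spindle list 20 of 20 were positive with a median of 0.43, and for the histone list 16 of 16 with a median of 0.35, beside 5271 of 10679 genes positive and a median of -0.0047 over all genes tested. The smallest edgeR Benjamini-Hochberg adjusted p in these 3 lists was 0.173. The make-up of the Ptprc cells moved with them, since T-like cells were 55.9%, 65.7% and 50.5% of the p16-DTR Ptprc cells and 33.3%, 44.6% and 54.4% of the controls. The part of that make-up in the list values was not tested. The median number of the 80 cell-cycle genes per proliferating cell, of any lineage, was 59, 56 and 55.5 in p16-DTR and 51, 46.5 and 53 in control libraries, without overlap. Those 80 are the genes of the replication, mitotic kinase, spindle and kinetochore lists, so this count is not a measure apart from the list values. Within T-like cells the mitotic kinase sum was 1651, 1767 and 1769 against 1069.6, 1944 and 1474, the groups overlapped, and the median log2 fold change was 0.18 with 0 genes at an unadjusted p under 0.05. In Cdh5 cells the mitotic kinase sum was 2724, 2723 and 3121 against 2478, 2628 and 2260, without overlap. Over all proliferating cells it was 1257, 1366 and 1297 against 1023, 1146 and 1059, again without overlap. Histone sums did not overlap in Cdh5 cells or over all proliferating cells, while the spindle and kinetochore sums overlapped in Cdh5 cells.

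Interferon response and stress genes leaned in opposite directions, again without a gene called by edgeR on all 6 libraries. The summed interferon list stood at 1303, 1172 and 995 in p16-DTR and 716, 675 and 856 in control Ptprc cells. Of 15 genes tested 14 were positive, with a median log2 fold change of 0.70 and a smallest edgeR Benjamini-Hochberg adjusted p of 0.0902, that of Ifi27l2a, an interferon-induced mitochondrial protein gene. In the other Ptprc cells all 15 had a positive log2 fold change, from 0.06 to 1.05. Ifi27l2a stood at 543, 469.6 and 467 against 288, 245 and 285 CPM. In the other Ptprc cells it stood at 628, 490.4 and 311 against 323, 241 and 305, where the groups overlapped, p16-DTR 3 lying below control 1. The dissociation stress list stood at 4233, 4322 and 3880.5 against 4943, 4469 and 5861, with a median of -0.42 over 15 genes tested. In T-like cells the interferon list had 10 of 10 positive with a median of 0.74 and 0 called by edgeR.

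Genes with the smallest p in Ptprc cells were chosen after their values were seen. None passed in edgeR on all 6 libraries, while DESeq2 called 233 genes in these cells. Tmem176a, a membrane protein gene of myeloid and type 17 lymphoid cells, stood at 43.3, 53.1 and 34.8 CPM in p16-DTR and 120.1, 131 and 138 in control proliferating cells. The groups did not overlap, the log2 fold change was -1.62 (SE 0.17) and the edgeR Benjamini-Hochberg adjusted p was 0.0738. In the other Ptprc cells it stood at 117, 119 and 100.2 against 157, 129 and 117, with a log2 fold change of -0.24. Its neighbour Tmem176b, which overlaps it on the other strand, had -1.77 (SE 0.21, adjusted p 0.0902 in edgeR), and reads of the pair could be shared if strand was not used in counting.

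T-like cells, the largest class, were fitted alone after values had been seen. The 200 T-like cells with Ptprc alone numbered 19, 46 and 50 in p16-DTR and 17, 25 and 43 in control libraries, and 2 were predicted doublets. In their sums edgeR called 33 of 8639 genes (0.382%), 2 higher and 31 lower in p16-DTR, all 33 without overlap of the groups, where 15.8% of the genes tested did not overlap. DESeq2 called 119 (1.38%), including all 33. The calls rest on few libraries: without p16-DTR 2 the test made 0 calls (708 genes at an unadjusted p under 0.05), without p16-DTR 3 it made 15, of which 9 were among the 33, and without p16-DTR 1 it made 18, of which 10 were. Without control 1, 2 or 3 it made 22, 23 and 34 calls, of which 13, 11 and 18 were among the 33. Of the 33 genes, 31 had the same sign in the other T-like cells, and 2 (Nav1 and Tgfbr2) were called there, among 22 of 13523 (0.163%).

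The genes higher in p16-DTR were Tox and Adam19. Tox (chromosome 4, 6686353 to 6991557, minus strand), a factor of persistently stimulated T cells, stood at 832, 1072 and 901 CPM in p16-DTR and 536, 455 and 544 in control proliferating T-like cells. All p16-DTR libraries lay above all controls, with a log2 fold change of 0.87 (SE 0.14, edgeR Benjamini-Hochberg adjusted p = 0.0394). In the other T-like cells it stood at 615, 758 and 605 against 593, 737 and 464, where the groups overlapped and the log2 fold change was 0.15. Adam19 (chromosome 11, 46055992 to 46147343, plus strand), a membrane protease, stood at 245, 349.7 and 222 against 129, 116 and 125, with 1.15 (SE 0.19, edgeR Benjamini-Hochberg adjusted p = 0.0394). In the other T-like cells its log2 fold change was 0.50, in the same direction (edgeR Benjamini-Hochberg adjusted p = 0.0995). T-cell subsets differed between libraries. Of all T-like proliferating cells 5 of 21, 33 of 52 and 24 of 54 had Gzmk in p16-DTR libraries against 4 of 19, 5 of 27 and 18 of 52 in controls, and 8, 25 and 22 against 4, 3 and 24 had Cd8a or Cd8b1 without Cd4. Their part in these and the following genes was not tested. The test of the difference between proliferating and other T-like cells called neither Tox nor Adam19, and 1 of 8639 genes in all (0.0116%). All 3 p16-DTR libraries lay above all 3 controls for 7.18% of the genes tested. Of the 12 alternatives in the closing section, 5 ended the call of Tox and 7 that of Adam19.

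The lower genes included the type 17 cytokines. Il17a (chromosome 1, 20730905 to 20734496, plus strand) had 1, 0 and 0 UMIs in the p16-DTR libraries and 27, 135 and 428 in the controls, from 1, 0 and 0 cells and 2, 5 and 5 cells. A single cell of control 3 held 339 of its 428 UMIs. Il17f, its neighbour and partner cytokine, had 0, 1 and 0 UMIs against 10, 38 and 93, from 3, 5 and 5 control cells. The ratio of control to p16-DTR UMIs, scaled to library totals, was 846 for Il17a (exact 95% counting interval 151 to 33485) and 202 for Il17f (35.7 to 8045), and the adjusted p was 0.0157 for both in edgeR with Benjamini-Hochberg adjustment. These intervals treat UMIs as independent, which UMIs of 1 cell are not. Over all 225 T-like proliferating cells, of any lineage call, Il17a had 1, 5 and 0 UMIs against 27, 135 and 448, so the ratio depends on a few cells. Of the 13 among these 200 cells with Il17a, 12 had Il23r (a receptor of type 17 cells), 10 had Cd4, 3 had Trdc and 0 had Cd8a.

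Il17a was also found in other T-like cells, here of any lineage call. It was present in 4.76%, 1.92% and 0% of all T-like proliferating cells against 10.5%, 18.5% and 15.4%, and in 9.38%, 3.72% and 5.96% of the other T-like cells in p16-DTR libraries against 17.7%, 16.3% and 11.2%, so the groups did not overlap there either. Its levels in those with Ptprc alone, 134, 32.3 and 153 CPM against 207, 218 and 129.9, did overlap, with a log2 fold change of -0.78 (edgeR Benjamini-Hochberg adjusted p = 0.530). The test of the difference between proliferating and other T-like cells gave an edgeR Benjamini-Hochberg adjusted p of 0.0947 for Il17a and did not pass. Il17f in the same other cells stood at 11.6, 0.429 and 4.99 CPM against 52.8, 65.1 and 45.8, without overlap (log2 fold change -3.34, edgeR Benjamini-Hochberg adjusted p = 0.0867). Fewer cells with the gene and less of it per cell cannot be told apart at 13 cells.

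Other lower genes were found in few cells too. Kcnc2, a potassium channel gene, had 0 UMIs in all p16-DTR libraries and 27, 48 and 25 in the controls, at least 47.8-fold lower in p16-DTR against a floor of 3 UMIs over the group. Clec12a, an inhibitory lectin of myeloid cells, had 2 UMIs against 67 (ratio 48.1, exact 95% counting interval 12.8 to 405). St6galnac1, a sialyltransferase gene, had 2 against 63 (45.2, interval 12 to 381). Of the 16 lists, only dissociation stress held genes called by edgeR on all 6 libraries, 2 of 14 tested, beside 33 of 8639 (0.382%) over all genes. Cdkn1a, of the inhibitor list, was not called in that fit but was called in 2 of the alternatives. Jun stood at 85.3, 76.5 and 86.8 CPM against 188, 139 and 172 (log2 fold change -1.0, SE 0.17) and Nr4a1, an early gene of receptor signalling, at 109, 107 and 106 against 196, 226 and 168 (-0.86, SE 0.15). Their edgeR Benjamini-Hochberg adjusted p-values were 0.0394 and 0.0472, and each was called in only 1 of the 6 fits that left out a library.

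Myeloid markers moved with several of these genes. Among T-like proliferating cells 23 also held at least 3 markers of a myeloid class, 3, 2 and 3 in p16-DTR and 3, 5 and 7 in control libraries, and the doublet caller had marked 1 of them. These cells held 98.1% of control Il1b UMIs, 98.5% of Plbd1, 95.1% of Cd74 and 89.0% of Ifitm3, genes of phagocytes, antigen presentation and interferon response, but 2.37% of Il17a, 32.8% of Clec12a and 31% of Kcnc2. The summed dendritic markers ranged from 11.9 to 66.8 CPM in p16-DTR and from 31.0 to 194 in control T-like cells, with Xcr1 at 0, and the classical monocyte markers from 266 to 459 and from 169 to 733, with none at 0. Without the 23 cells, 15 of 7976 genes were called (0.188%), 13 of them among the 33, of which 25 passed the filter on low counts in that fit. Il17f, Il1b and Plbd1 were among those not tested. Il17a, Kcnc2, Clec12a and St6galnac1 were still called, as were Furin (log2 fold change -2.03), a protease that matures cytokines, Tgfbr2 (-1.01), a TGF-beta receptor, and Tox (0.75, edgeR Benjamini-Hochberg adjusted p = 0.0495). Adam19 (1.08, adjusted p 0.0552 in edgeR), Jun (-0.63, 0.327) and Nr4a1 (-0.77, 0.105) were not, the log2 fold change of Adam19 being 1.15 with those cells. Nr4a1 is itself a marker of a myeloid class, that of nonclassical monocytes. Its counts thus helped choose the cells left out, and its lost call is not a result.

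**Figure D4:**
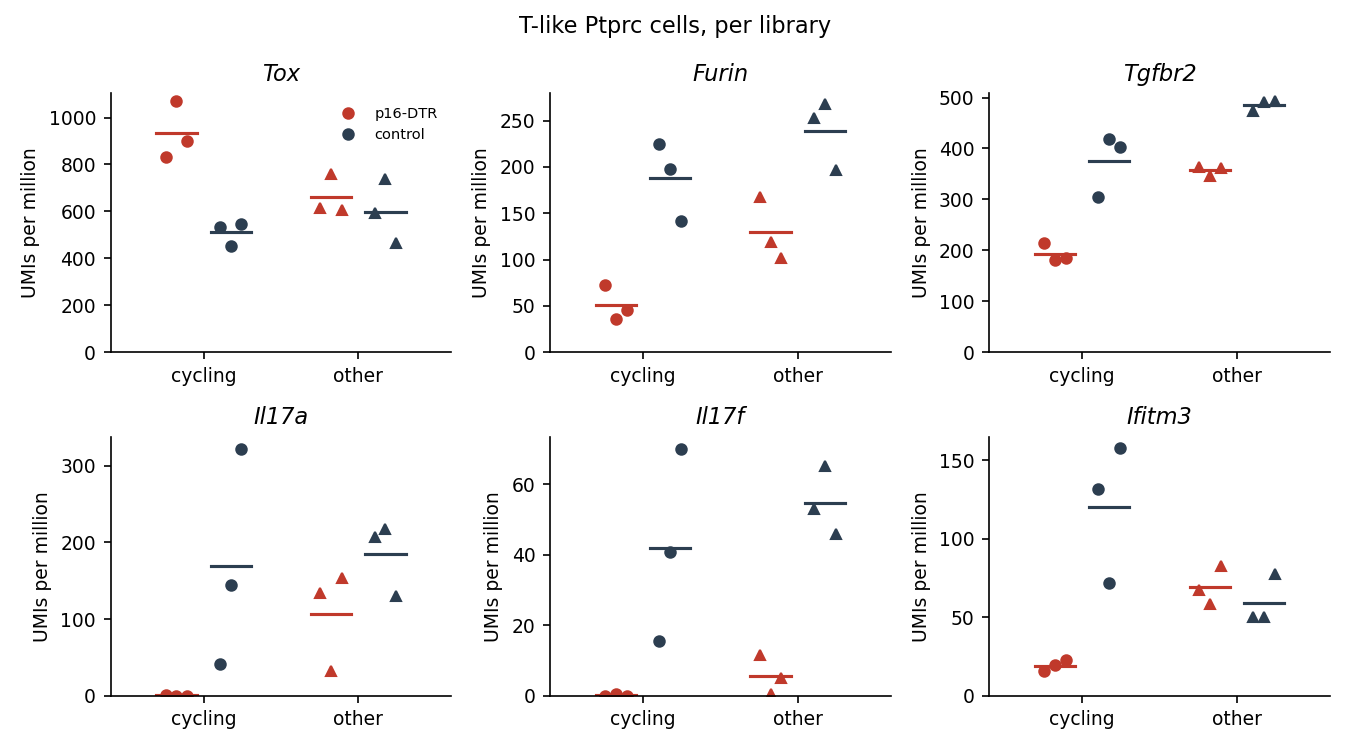
CPM of 6 genes in T-like Ptprc cells of each library (vertical axes from 0), for proliferating cells (circles) and other T-like cells (triangles), in p16-DTR (red) and control (dark blue), with horizontal bars at group means. Tox is higher in the 3 p16-DTR libraries in proliferating cells, at 832 to 1072 against 455 to 544, while Il17a and Il17f are near 0 there.

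Cdkn2a (chromosome 4, 89274471 to 89294653, minus strand) was found in more proliferating cells of p16-DTR than of control libraries. This is the gene whose promoter marked cells for removal, and the counts do not separate its product p16 from its other product, Arf. A UMI was found in 32.8%, 38.2% and 43.2% of proliferating cells in p16-DTR and in 18.1%, 26.4% and 18.0% in control libraries. All p16-DTR libraries lay above all controls, with means of 38.1 ± 5.20% and 20.8 ± 4.81% (SD, n = 3 each, exact permutation p = 0.1, the smallest possible). After each cell was thinned to 5000 UMIs the shares were 9.21% and 3.45%, again without overlap. In CPM the level was 18.8, 21.5 and 21.0 against 9.21, 13.9 and 7.56. Of all genes tested over all proliferating cells, 6.7% had all 3 p16-DTR libraries above all 3 controls. The edgeR log2 fold change of 0.99 (SE 0.25) did not pass adjustment over all genes (Benjamini-Hochberg adjusted p = 0.673).

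The other retained cells differed in the same direction, by a larger ratio but by fewer percentage points, at 7.18 against 17.2. A Cdkn2a UMI was found in 7.96%, 9.20% and 8.43% of them in p16-DTR and in 0.875%, 1.64% and 1.53% in control libraries. Neutrophil-like cells, taken as a class that should hold little of it, had it in 1.64%, 1.12% and 4.63% of cells against 0%, 0.221% and 0%, at medians of 8804 to 10595 UMIs per library. The share in control proliferating cells lay above that of control neutrophil-like cells in every library. In Ptprc cells the level stood at 21.0, 24.8 and 18.7 CPM against 6.30, 14.6 and 5.33 in proliferating cells, and at 6.84, 10.4 and 9.79 against 0.364, 1.07 and 0.983 in other cells. The ratio of group means was 2.46 in the former and 11.2 in the latter, while p16-DTR minus control was 12.8 and 8.21 CPM. The test of the difference between the ratios gave a log2 value of -2.21 (SE 0.41) with an edgeR Benjamini-Hochberg adjusted p of 0.147. DESeq2 gave 0.00043 and edgeR without a filter on low counts 0.0333. Within proliferating Ptprc cells the group difference was 1.28 (SE 0.38, edgeR Benjamini-Hochberg adjusted p = 0.228, and 0.0398 without control 2).

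The same order was found among deep Ptprc cells. Among cells of at least 20000 UMIs, 42.2% of p16-DTR and 16.7% of control proliferating Ptprc cells had a Cdkn2a UMI, against 14.7% and 1.55% of the other Ptprc cells. In Cdh5 proliferating cells the shares were 33.3%, 22.7% and 37.5% against 33.3%, 25% and 14.3%, and the groups overlapped (exact permutation p = 0.5). In T-like proliferating cells they were 42.9%, 50% and 38.9% against 5.26%, 44.4% and 23.1%, and the groups overlapped too, control 2 lying above p16-DTR 1 and 3 (exact permutation p = 0.3). After thinning to 5000 UMIs the T-like shares were 14.3%, 13.5% and 18.5% against 0%, 7.41% and 7.69%, without overlap (exact permutation p = 0.1, the smallest possible). The T-like CPM levels overlapped. Of the 180 proliferating cells with Cdkn2a, 127 also had Cdkn1a, which 384 of all 593 proliferating cells had. Cells with Cdkn2a held more cell-cycle genes than cells without it, with a median of 63 against 49 of the 80 genes in p16-DTR and 67 against 45 in control libraries. Their median UMI counts were 42370 against 35452 in p16-DTR and 37589.5 against 38410 in control. The tdTomato entry of the gene table, a red fluorescent protein, had a UMI in 250 retained cells, all in p16-DTR libraries. Of these 1 was proliferating, in p16-DTR 2, beside 0.669% of all retained cells, so the count is no result about proliferating cells.

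**Figure D5:**
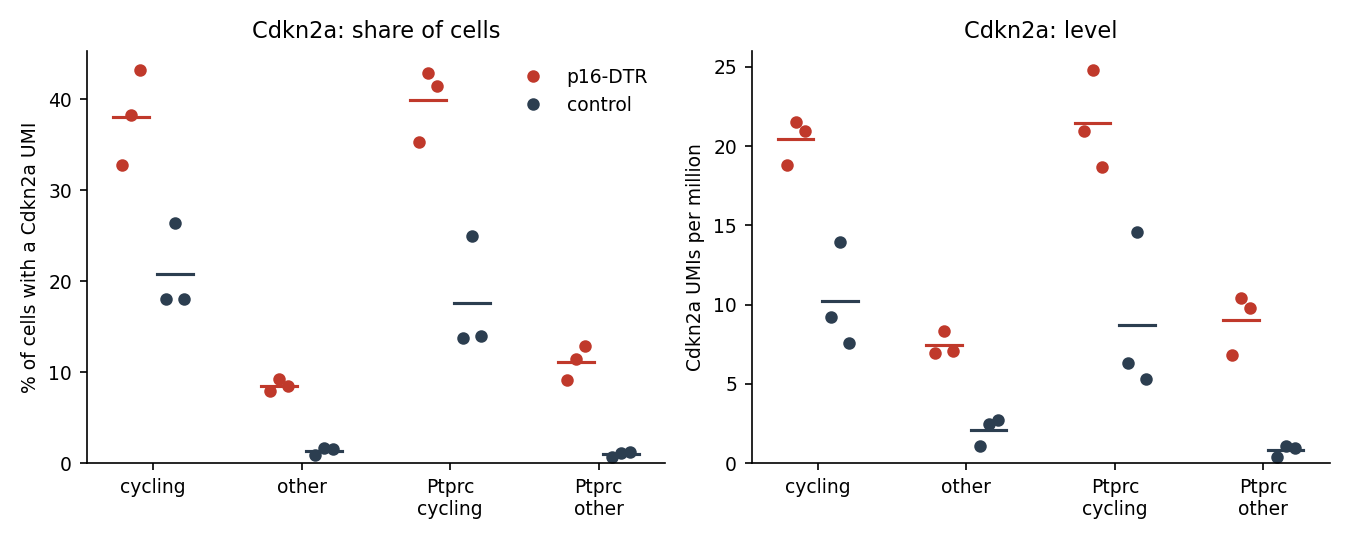
Left, percentage of cells with a Cdkn2a UMI, and right, Cdkn2a CPM, in each library (points) with group means (bars), for proliferating cells, other retained cells, and both kinds within the Ptprc lineage. p16-DTR (red) lies above control (dark blue) in all 4 sets, at 32.8 to 43.2% against 18.0 to 26.4% in proliferating cells.

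The locus has 2 starts, and the sequence before each is shown because some cell-cycle genes above carry E2F elements and p16 acts upstream of E2F. By RefSeq on GRCm38.p6 the 200 bases are chr4:89282193-89282392 for the downstream start, which serves p16, and chr4:89294620-89294819 for the upstream start, which serves Arf, both on the minus strand. Capitals mark the same 3 elements.
Cdkn2a downstream: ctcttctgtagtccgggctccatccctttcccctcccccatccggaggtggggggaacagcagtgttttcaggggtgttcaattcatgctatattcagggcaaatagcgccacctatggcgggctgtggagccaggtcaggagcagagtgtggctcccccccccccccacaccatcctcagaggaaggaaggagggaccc
Cdkn2a upstream: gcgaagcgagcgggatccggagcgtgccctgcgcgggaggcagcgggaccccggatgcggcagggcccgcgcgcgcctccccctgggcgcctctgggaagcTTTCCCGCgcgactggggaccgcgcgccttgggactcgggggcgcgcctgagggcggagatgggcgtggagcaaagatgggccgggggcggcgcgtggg
The first holds 0 of the marked elements and the second 1 E2F element. The deposited counts give one value for the gene and cannot be split between the starts.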

How the data were processed

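Lung cells of 3 p16-DTR and 3 control samples were read as deposited UMI counts per gene and barcode, 1 matrix a library, made by the authors with Cell Ranger 8.0.1 on mm10 per the submitters' processing notes; filters made before deposit are not given in the sources used here. The members and gene lists were chosen with earlier results of these data known. Barcodes were kept at 500 or more genes, 1000 or more UMIs and at most 15% mitochondrial UMIs, and predicted doublets were kept and counted, with their removal as an alternative. Counts were summed per library and cell set and compared with the quasi-likelihood test of edgeR 4.0.16 (limma 3.58.1, R 4.3.3), TMM scaling and its filter on low counts, with Benjamini-Hochberg adjustment at 0.05 over all genes tested. DESeq2 1.42.0 was an alternative. Shares were compared with two-sided exact permutation tests (Python 3.11.15, scipy 1.17.1). Levels are counts per 1000000 UMIs (CPM) of the summed cells. Wilson intervals and the floor of 3 UMIs cover counting error only. Cells were thinned to 5000 UMIs where shares with a UMI were compared, leaving out 8 shallower proliferating cells. Named genes were Mki67, Top2a, Cdkn2a, Cdkn1a and tdTomato, up to 8 called genes per direction whose groups did not overlap, called list genes, and per list the 3 highest and the 3 with the largest ratio; others were named after their values were seen. The fit of T-like cells and the removal of cells with myeloid markers were chosen after seeing the data. On simulated counts of the Ptprc comparison with 10793 genes, edgeR recovered 41% of 100 genes changed 2-fold and 99% of 100 changed 4-fold, with 3 false among 143 calls. The simulated test of the difference from other Ptprc cells recovered 12% of 100 genes changed 2-fold and 96% of 100 changed 4-fold, with 2 false among 110 calls. The simulation used a single set dispersion of 0.05 and changed only genes with higher counts. Other alternatives were RLE scaling, no filter, other UMI thresholds, a replicate block and leaving out each library.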

Additional observations from a re-analysis of the deposited data

Results flagged for a closer look

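Ifitm3, an interferon-induced membrane protein gene, had a group difference in proliferating T-like cells that differed from the one in other T-like cells, by -2.78 on the log2 scale (SE 0.26, edgeR quasi-likelihood test, Benjamini-Hochberg adjusted p = 0.00296), the only gene of 8639 called for that difference (0.0116%). In proliferating cells it stood at 15.6, 19.6 and 22.4 CPM in p16-DTR and 132, 71.7 and 158 in control libraries, and in the others at 67.3, 58.3 and 82.3 against 50.1, 49.9 and 77.3. Cells with myeloid markers held 89.0% of its control UMIs, and without them the difference was -0.34 (adjusted p 0.894 in edgeR). A single cell of each control library held most of the Ifitm3 UMIs, 65 of 85, 62 of 67 and 163 of 210, so the call rests on very few cells. Ifitm genes are near-identical copies, so the value of a single one is uncertain.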

How the results depend on the processing

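The share of proliferating cells and their share with a Cdkn2a UMI kept their direction under every alternative run. Lineage differences (log2, none past the threshold) changed sign in some. With a library left out, the share of Ptprc cells proliferating ranged from -0.508 to 0.0147 (positive without p16-DTR 1) and that of Cdh5 cells from -0.783 to 0.183 (positive without p16-DTR 3, at 0.0783, and without control 1), and the make-up value of Cdh5 from -0.665 to 0.220 (positive without the same libraries, 0.143 without control 1). After thinning Cdh5 was 0.217 for the share and 0.0372 for the make-up. With lineages read from 1 UMI the mixed share was -0.0507, and the make-up was 0.128 for Ptprc and -0.124 for mixed. Calls over all proliferating cells were 47 in DESeq2 and 0 to 1 with a library left out. In Ptprc cells they were 85 without a filter, 233 in DESeq2, 3 without predicted doublets and 0 to 98 with a library left out. For the difference from other Ptprc cells they were 86 without a filter, 194 in DESeq2 and 0 to 50 with a library left out. In T-like cells they were 530 without a filter (24.0% higher in p16-DTR, against 6.06% of the 33), 119 in DESeq2 (18.5% higher), 55 without predicted doublets, 15 without cells with myeloid markers and 0 to 34 with a library left out. With a library left out, Cdkn1a in Ptprc cells ranged from -0.389 to 0.0478 (positive without p16-DTR 3). Mki67 and Top2a chose the cells, so their values are descriptions. In T-like cells Mki67 ranged from -0.231 (without control 1) to 0.334, with -0.0167 without p16-DTR 3, and Top2a from -0.0440 (without control 1) to 0.312. Mki67 was -0.0844 without cells with myeloid markers. The cause was not tested. Same-numbered samples correlated at 0.26, -0.05 and -0.01, and so few values cannot decide whether the numbers pair them. With a replicate block the share difference was 0.0943 percentage points (exact sign-flip p = 0.5), and calls were 0 over all proliferating cells, 1 in Ptprc cells (Il17a) and 40 in T-like cells.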
